A study of Mus musculus with 59 samples.

Results

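The Period genes Per1, Per2 and Per3 encode the PER proteins, the time-keeping repressors of the mammalian circadian clock. They are 3 of the 4484 genes in the expression table analysed here, chosen by gene symbol and not by their values, and all 3 were among the 4273 genes with enough reads to be tested. RNA was sequenced from homogenised medial prefrontal cortex of adult C57BL/6J mice of both sexes, a wild-type inbred strain with no treatment named, killed every 4 h at zeitgeber times ZT2, ZT6, ZT10, ZT14, ZT18 and ZT22. The 12 groups of sex and time held 5 libraries each, except females at ZT10 with 4, which gave 59 libraries in all. Zeitgeber time counts hours from lights on by convention, and the interval ZT12 to ZT24 is taken as the dark phase on the same convention, since no light schedule is stated. Separate animals for separate libraries are not stated either, and the p-values below therefore measure the spread between libraries.

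In the clock of mammalian cells the activators CLOCK and BMAL1 bind E-box sequences in the Period and Cryptochrome genes and switch them on. The PER proteins accumulate, enter the nucleus with the CRY proteins and shut off that activation, and their later destruction, timed by casein kinase phosphorylation, lets the next cycle start. PER1 and PER2 are needed for a normal rhythm of behaviour in mice, while loss of PER3 has milder effects. Per1 and Per2 are also induced by signals from outside the loop, among them cAMP signalling through CREB and glucocorticoid hormone. In nocturnal rodents, brain areas outside the suprachiasmatic nucleus carry Period rhythms timed differently from those of that central pacemaker.

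Per1 (ENSMUSG00000020893) lies on the plus strand of chromosome 11 from 69095217 to 69109960 in GRCm38, Per2 (ENSMUSG00000055866) on the minus strand of chromosome 1 from 91415982 to 91459324, and Per3 (ENSMUSG00000028957) on the minus strand of chromosome 4 from 151003652 to 151044665. Per3 lies inside the span of Camta1 on the same strand, but neither it nor the other two shares an exonic base with another gene of the GENCODE M21 annotation. Reads of unspliced Camta1 RNA over Per3 exons could not be told apart from Per3 reads. The RefSeq promoter table, on build GRCm38.p6, held 2 transcription starts for Per1 and 1 for Per3. Per2 had no entry. The bases that follow the first Per1 start were found near the beginning of 1 of 6 GENCODE transcripts of Per1, those after the second start near the beginning of 0 of 6, and those after the Per3 start in 3 of 5. The 250 bases before each start are shown because elements of the kinds through which the clock acts on Period genes can lie there. Letters are 5′ to 3′ on the gene's strand, and capitals mark matches, on either strand, to an E-box (CACGTG), an E-prime box (CACGTT), a D-box bound by the PAR bZIP factors (TTATGTAA or TTACGTAA), a cAMP response element (TGACGTCA) or the core of that element (TGACG, contained in the full one).
Per1, first start, chr11:69098699-69098948, plus strand: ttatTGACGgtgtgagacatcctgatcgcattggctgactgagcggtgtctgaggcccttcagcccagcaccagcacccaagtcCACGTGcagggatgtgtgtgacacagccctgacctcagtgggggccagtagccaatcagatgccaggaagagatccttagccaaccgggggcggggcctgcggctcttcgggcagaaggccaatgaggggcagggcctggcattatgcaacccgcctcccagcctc
Per1, second start, chr11:69099902-69100151, plus strand: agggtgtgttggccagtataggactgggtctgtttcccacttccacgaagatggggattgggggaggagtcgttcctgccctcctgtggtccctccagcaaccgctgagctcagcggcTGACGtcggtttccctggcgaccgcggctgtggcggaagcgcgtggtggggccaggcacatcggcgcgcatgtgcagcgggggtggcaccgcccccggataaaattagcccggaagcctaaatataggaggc
Per3, chr4:151044666-151044915, minus strand: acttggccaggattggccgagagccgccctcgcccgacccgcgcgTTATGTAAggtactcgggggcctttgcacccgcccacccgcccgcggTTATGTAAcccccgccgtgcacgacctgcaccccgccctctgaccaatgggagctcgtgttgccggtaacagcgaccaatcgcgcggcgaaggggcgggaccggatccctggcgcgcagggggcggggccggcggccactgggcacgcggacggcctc
The first Per1 window held 1 E-box, from base -166 to -161 counted back from the annotated start, and 1 core of the cAMP response element from -246 to -242. The second Per1 window held only such a core, from -132 to -128. The Per3 window held 2 D-boxes with the same 8-base sequence, from -205 to -198 and from -158 to -151, and no E-box. Among all 32851 RefSeq windows of this length, 6.02% held the E-box, 3.85% the E-prime box, 0.932% a D-box, 1.55% the full cAMP response element and 17.8% its core. Both Per1 windows lie within the span of the GENCODE gene, which starts further upstream. A match to these letters is a description of the sequence and does not show that a factor binds there.

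The table gave 6317420 to 13325019 reads per library, with a median of 9015221, but its 6 most abundant genes, all noncoding, took between 61.4% and 91.2% of them. The remaining genes shared 1009789 to 4253935 reads. Titles carry serial numbers, and the 11 libraries numbered 49 to 60 differed on average from the others. Their mean score on principal component 1 of the tested genes (24.5% of the variance) was 20.9 ± 6.61 (SD). The 4 runs of 12 numbers before them had means of -7.48 to 1.43, with SDs of 9.55 to 17.9. Slc17a7, the vesicular glutamate transporter of cortical excitatory neurons, averaged 14.86 on the log2 scale and was never below 14.36. The listed striatal markers Penk and Tac1 averaged 8.08 and 6.85, and the olfactory bulb marker Calb2 8.10. These levels describe the libraries and do not test the region named in the label. No marker of endothelial cells, choroid plexus or blood was among the genes analysed here. Markers of other cell types were missing in part too. The table held 4 of 10 listed for glutamatergic neurons, 8 of 11 for GABAergic neurons, 4 of 8 for astrocytes and 2 of 10 for oligodendrocytes and precursors. Absence from the table therefore does not show that such cells were absent from the tissue.

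The 3 genes differed in level, and Per1 was the most abundant. Levels are given as deposited, as the log2 of a read count scaled for library size plus 1, and between genes per kilobase of exon on the same log2 scale. Per1 averaged 7.46 ± 0.44 per kilobase, Per2 6.18 ± 0.55 and Per3 5.69 ± 0.30 (SD, n = 59 libraries). Per kilobase, Per1 was above Per2 and above Per3 in 59 of 59 libraries, and Per2 was above Per3 in 53 of 59. The lengths used were those of all annotated exons merged, 5631 bases for Per1, 5856 for Per2 and 9608 for Per3. Before division by length the order of Per2 and Per3 was the reverse, with means of 9.95 for Per1, 8.73 for Per2 and 8.96 for Per3. The gap between Per2 and Per3, 0.49 on average, was smaller than its SD between libraries, 0.51. By this measure 61.4% of the 4258 tested genes with an exon length lay below Per1, 36.99% below Per2 and 28.6% below Per3. The libraries held a median of 319 and up to 1575 reads of Per1, 46 to 691 reads of Per2, and 62 to 456 reads of Per3 (median 156). Counting error at the median depth was 0.08, 0.12 and 0.12 on the log2 scale for Per1, Per2 and Per3. The SD between libraries of the same time and sex was 0.31, 0.39 and 0.27, so most of the spread within a group was not counting error. In a homogenate, fewer expressing cells and less RNA per cell cannot be told apart.

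The time course asked when in the day each Period transcript was high. Per1, which can act as an immediate early gene, was lowest at ZT2, where the lowest, median and highest libraries were at 8.78, 9.35 and 10.03. The same 3 values were 9.11, 9.75 and 10.28 at ZT6, 9.78, 9.98 and 10.38 at ZT10, 9.77, 10.42 and 11.22 at ZT14, 9.92, 10.34 and 10.56 at ZT18, and 9.54, 9.79 and 10.36 at ZT22. The mean of Per1 was thus higher at each sampling up to ZT14, with 9.44 ± 0.35 at ZT2, 9.75 ± 0.35 at ZT6, 10.01 ± 0.21 at ZT10 and 10.40 ± 0.39 at ZT14, stood at 10.28 ± 0.22 at ZT18 and were back at 9.84 ± 0.27 by ZT22 (SD, n = 10 libraries of both sexes, 9 at ZT10).

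Per2, whose loss shortens the daily period of mice, had a different course: flat and low through the light phase and high in the dark. Its lowest, median and highest libraries were at 7.44, 8.56 and 8.89 at ZT2, 7.64, 8.31 and 8.98 at ZT6 and 7.66, 8.42 and 8.88 at ZT10. In the dark they were at 8.64, 9.06 and 10.04 at ZT14, 8.65, 9.45 and 9.98 at ZT18, and 8.47, 8.88 and 9.18 at ZT22. The means were 8.42 ± 0.45, 8.35 ± 0.42 and 8.33 ± 0.37 at the 3 light times and 9.10 ± 0.42, 9.31 ± 0.45 and 8.83 ± 0.26 at the 3 dark times. Libraries of neighbouring times overlapped throughout, yet all 10 libraries at ZT14 were above the median library of ZT10, and 7 of them were above every library of ZT10.

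Per3 had the shallowest course. Its lowest, median and highest libraries were at 8.17, 8.73 and 9.32 at ZT2, 8.35, 8.73 and 9.08 at ZT6, 7.87, 8.91 and 9.31 at ZT10, 8.83, 9.11 and 9.44 at ZT14, 8.87, 9.12 and 9.50 at ZT18, and 8.94, 9.11 and 9.38 at ZT22. The means lay between 8.76 and 8.84 at the light times and between 9.08 and 9.15 at the dark times. The spread at the dark times was small, with SDs of 0.19, 0.19 and 0.15 at ZT14, ZT18 and ZT22, against 0.31, 0.21 and 0.44 at ZT2, ZT6 and ZT10. The lowest Per3 value of the study, 7.87, came from ZT10 female replicate 1 and rested on 62 reads.

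**Figure D1:**
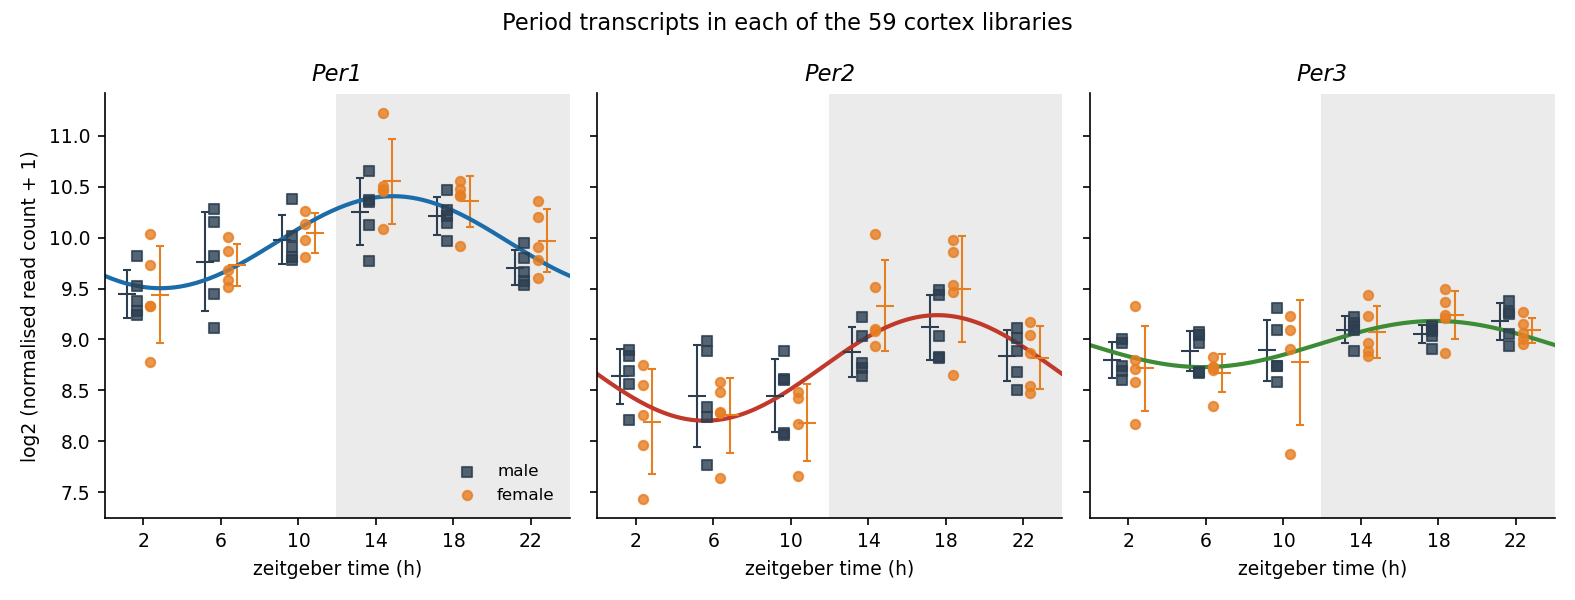
Deposited log2 values of Per1, Per2 and Per3 against zeitgeber time, with each library as a point (squares male, circles female), horizontal bars at group means with SD, the fitted 24 h curve as a line, and grey from ZT12 to ZT24. The Per1 curve peaks at ZT14.9, before those of Per2 at ZT17.6 and Per3 at ZT17.8, and the Per3 curve is the shallowest.

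A 24 h cosine was fitted to all libraries with sex as a covariate, which tests whether a transcript follows a daily rhythm. All 3 Period genes passed, on a background of 81 of 4273 tested genes, or 1.9%. Per1 had an amplitude from mean to peak of 0.45 ± 0.05 (SE, n = 59), a 1.87-fold difference between fitted peak and trough, with the peak at ZT14.9 ± 0.47 h (adjusted p = 9.74e-08, limma, Benjamini-Hochberg). Per2 had the largest amplitude, 0.52 ± 0.07 or 2.05-fold, and peaked at ZT17.6 ± 0.55 h (adjusted p = 9.88e-06, limma). Per3 had 0.23 ± 0.05 or 1.37-fold and peaked at ZT17.8 ± 0.82 h (adjusted p = 0.00841, limma). By p, Per1 and Per2 were ranked 4 and 5 of all genes tested and Per3 was ranked 43. By amplitude they were ranked 59, 33 and 377, where the median gene had 0.08. Without the libraries numbered 49 to 60 Per3 was at 0.19 and no longer passed (adjusted p = 0.187, limma). Scaling by the total of the table, which the noncoding genes dominate, left the amplitudes at 0.43, 0.52 and 0.24 but ended all 3 calls (adjusted p = 0.269, 0.186 and 1 for Per1, Per2 and Per3, limma).

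The rhythm could also be tested without a set shape, as any difference between the 6 times. Per1 (adjusted p = 3.48e-06, limma, Benjamini-Hochberg) and Per2 (adjusted p = 9.22e-05) passed, on a background of 45 genes or 1.05%, and Per3 just missed (adjusted p = 0.0727), though it passed with limma voom (adjusted p = 0.0468). Without the libraries numbered 49 to 60 Per3 was further from passing (adjusted p = 0.48, limma). With scaling by the total of the table it did not pass either. Adding 12 h terms to the cosine asked whether the courses departed from a plain 24 h wave. None of the 3 passed (adjusted p = 0.787, 0.625 and 0.872 for Per1, Per2 and Per3, limma), and 0 of all genes passed, against 291 at an unadjusted p under 0.05; limma voom on the recovered reads also called 0.

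Steps from one sampled time to the next showed where in the day each transcript changed. Only 1 step of the Period genes passed: Per2 rose at ZT14 relative to ZT10, by 0.79 ± 0.17 on the log2 scale or 1.73-fold (SE, adjusted p = 0.0366, limma, Benjamini-Hochberg). At that step 4 genes of 4273 passed, or 0.0936%, all higher at ZT14, and Per2 was ranked 4 by p. The same step was 0.39 ± 0.14 for Per1 (adjusted p = 0.775) and 0.25 ± 0.12 for Per3 (adjusted p = 0.921). Per1 had no single step that passed: its differences were 0.30 at ZT6 over ZT2, 0.26 at ZT10 over ZT6, -0.12 at ZT18 over ZT14, -0.45 at ZT22 over ZT18 and -0.39 at ZT2 over ZT22. The Per2 step at dusk contrasted with its differences of -0.07 at ZT6 over ZT2 and -0.03 at ZT10 over ZT6. Per2 then stood at 0.20 for ZT18 over ZT14, -0.48 for ZT22 over ZT18 and -0.41 for ZT2 over ZT22. The largest Per3 difference was -0.38 ± 0.12 at ZT2 over ZT22 (adjusted p = 0.999, limma). The Per2 step lost its call when any 1 of 9 libraries was left out (ZT10 male and female replicates 3 and 4, ZT14 male replicates 3, 4 and 5, and ZT14 female replicates 4 and 5; 0.70 to 0.84 over all single omissions, adjusted p up to 0.211). It was also lost without the libraries numbered 49 to 60 (0.74, adjusted p = 0.185, limma).

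**Figure D2:**
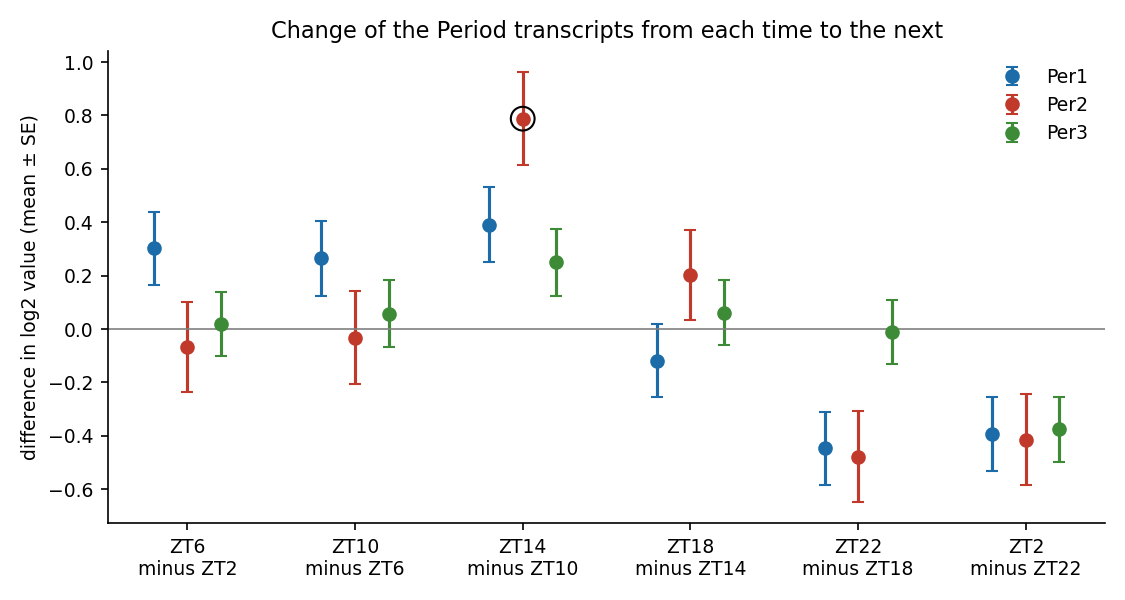
Difference in log2 value from each sampled time to the next, as mean ± SE from the limma fit of the 12 group means, for Per1, Per2 and Per3, with a ring around the 1 step with an adjusted p under 0.05. Per1 is positive at each of the first 3 steps, 0.30, 0.26 and 0.39, whereas Per2 stays near 0 until ZT14 over ZT10, where it reaches 0.79.

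Times 12 h apart set the dark phase against the light phase. For ZT14 against ZT2, Per1 was 1.94-fold higher at ZT14, a log2 difference of 0.96 ± 0.14 (SE, adjusted p = 1.38e-05, limma, Benjamini-Hochberg) and the smallest p of all genes, on a background of 11 genes or 0.257%, all higher at ZT14. Of its 10 libraries at ZT14, 9 were above every library at ZT2; no overlap at all was seen for 3 genes or 0.0702%, none of them a Period gene. Per2 differed by 0.69 ± 0.17 in the same direction and just missed (adjusted p = 0.0507, limma), and passed with limma voom on the recovered reads (0.72, adjusted p = 0.0409). It did not pass without the libraries numbered 49 to 60 (0.65, adjusted p = 0.177, limma) or with scaling by the total of the table (0.64). For ZT18 against ZT6 the order was turned round. Per2 was 1.94-fold higher at ZT18, by 0.96 ± 0.17 (adjusted p = 0.000629, limma), and Per1 1.45-fold higher, by 0.54 ± 0.14 (adjusted p = 0.0446), on a background of 34 genes or 0.796%. That background ran from 12 to 38 genes when 1 library was left out, and was 20 with scaling by the 75th percentile and 2 with scaling by the total of the table. The Per1 call at ZT18 ended when any 1 of 14 libraries was left out, namely replicates 1, 3, 4 and 5 of both sexes at ZT18, female replicates 1 to 4 at ZT6 and male replicates 2 and 4 at ZT6 (0.46 to 0.60 over all single omissions, adjusted p up to 0.115, limma). For ZT22 against ZT10 none of the 3 passed, on a background of 9 genes or 0.211%, and Per1 and Per2 lay on opposite sides of 0, with -0.17 ± 0.14 for Per1 and 0.51 ± 0.17 for Per2. Per3 was higher at the dark time in each of the 3 contrasts without passing, by 0.33, 0.37 and 0.30 (adjusted p = 0.359, 0.19 and 0.715, limma).

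Differences between the members were tested on the log2 ratio of a pair within each library, which does not depend on how libraries are scaled. The 3 pairs were compared, with p-values adjusted over them. Per1 peaked before Per2, with a Per1 minus Per2 difference in peak time of -2.69 h (95% interval -3.79 to -1.58 h), and their ratio followed a 24 h rhythm with an amplitude of 0.34 (permutation test with 100000 resamples, adjusted p = 3e-05). The Per1 to Per2 ratio was highest at ZT9.5, near the end of the light phase. Their own amplitudes were not told apart, with a difference of -0.07 (95% interval -0.21 to 0.08). Per1 also peaked before Per3, at -2.97 h relative to it (-4.69 to -1.26 h), and its amplitude was larger by 0.22 (95% interval 0.09 to 0.36). The ratio of Per1 to Per3 was rhythmic with an amplitude of 0.33 (permutation test, adjusted p = 3e-05). The test of a ratio does not separate a difference in peak time from a difference in amplitude. The peak of Per2 minus that of Per3 was -0.29 h, with an interval from -2.23 to 1.66 h that includes either order. They differed in amplitude, by 0.29 (0.12 to 0.47), and their ratio was rhythmic with an amplitude of 0.29 (permutation test, adjusted p = 0.00574).

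The sexes were set against each other at the same times. Averaged over the day, male minus female differences were -0.12 ± 0.08 for Per1, 0.01 ± 0.10 for Per2 and 0.06 ± 0.07 for Per3 (SE, adjusted p = 0.999 for each, limma, Benjamini-Hochberg), with 1 gene or 0.0234% passing in the whole table. Per2 showed the widest gap in its course. At ZT2 the Per2 values were 8.69, 8.56, 8.21, 8.89 and 8.84 in males, against 8.75, 7.44, 8.26, 7.97 and 8.56 in females. At ZT14 they were 8.72, 8.64, 8.76, 9.22 and 9.03 in males, against 8.93, 9.08, 9.10, 9.51 and 10.04 in females. The sexes overlapped at both times, and the male minus female difference of means was 0.44, 0.19 and 0.26 at ZT2, ZT6 and ZT10, and -0.46, -0.38 and 0.02 at ZT14, ZT18 and ZT22.

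Fitted alone, the Per2 amplitude was 0.33 ± 0.08 in males (adjusted p = 0.17, limma) and 0.72 ± 0.11 in females (adjusted p = 0.00183), with peaks at ZT18.5 and ZT17.1. Per1 passed in both sexes, with 0.39 ± 0.07 in males (adjusted p = 0.021) and 0.51 ± 0.08 in females (adjusted p = 0.00183, limma). Per3 passed in neither, with 0.15 ± 0.06 in males (adjusted p = 0.609) and 0.30 ± 0.08 in females (adjusted p = 0.243). The backgrounds were 7 genes or 0.164% in males and 14 genes or 0.328% in females. The difference of rhythm itself was tested by the sex by time terms and passed for no member: the adjusted p was 0.783, 0.741 and 0.753 for Per1, Per2 and Per3 (limma), with unadjusted p of 0.423, 0.0132 and 0.315. No gene of the table passed that test (0 of 4273, 180 at an unadjusted p under 0.05, and 0 by limma voom). The Per1 rhythm in males lost its call without ZT2 male replicate 2, ZT2 male replicate 5 or ZT14 male replicate 5 (adjusted p up to 0.0634). It was likewise lost when the libraries numbered 49 to 60 were left out (0.36, adjusted p = 0.0713, limma).

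**Figure D3:**
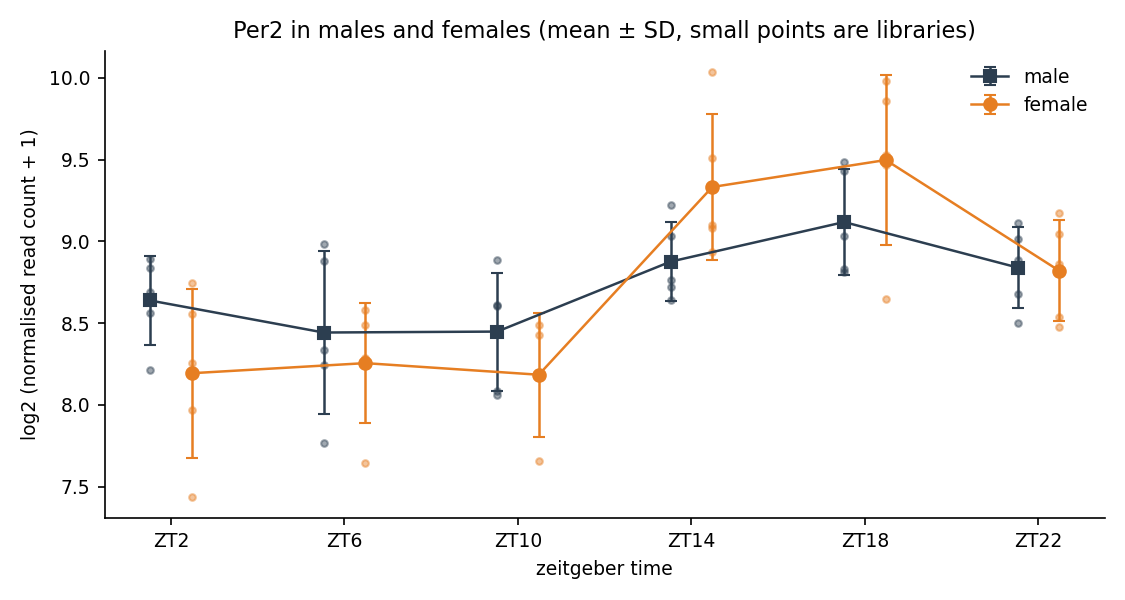
Deposited log2 values of Per2 at each zeitgeber time in males (squares) and females (circles), as mean ± SD of 5 libraries (4 in females at ZT10) with each library as a small point. The male means lie above the female means at ZT2, ZT6 and ZT10 (male minus female 0.44, 0.19 and 0.26), and below them at ZT14 and ZT18 (-0.46 and -0.38).

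Each run of 12 serial numbers held 1 library of every group, the last lacking 1, so the rhythm could be fitted 5 times over on separate libraries. Per1 had amplitudes of 0.38, 0.37, 0.40, 0.57 and 0.60 in the runs from 1 to 12 up to 49 to 60, and its peak stayed between ZT13.7 and ZT15.9. Per2 ranged more widely, from 0.35 to 0.87, with peaks from ZT15.5 to ZT18.2. For Per3 the amplitude fell between 0.09 and 0.37 and the peak between ZT14.9 and ZT19.5. Per1 peaked before Per2 in all 5 runs, and its amplitude was the steadiest, with an SD of 0.11 around a mean of 0.47, against 0.21 around 0.53 for Per2 and 0.12 around 0.24 for Per3. The mean level of the libraries numbered 49 to 60 was 10.24 for Per1 and 9.05 for Per2, above the means of the other 4 runs (9.81 to 9.95 and 8.53 to 8.79), whereas Per3, at 9.0, lay within their range of 8.82 to 9.05. Taken alone, the libraries numbered 49 to 60 put Per1 at 0.60 (adjusted p = 0.0772, limma), and no gene passed there.

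**Figure D4:**
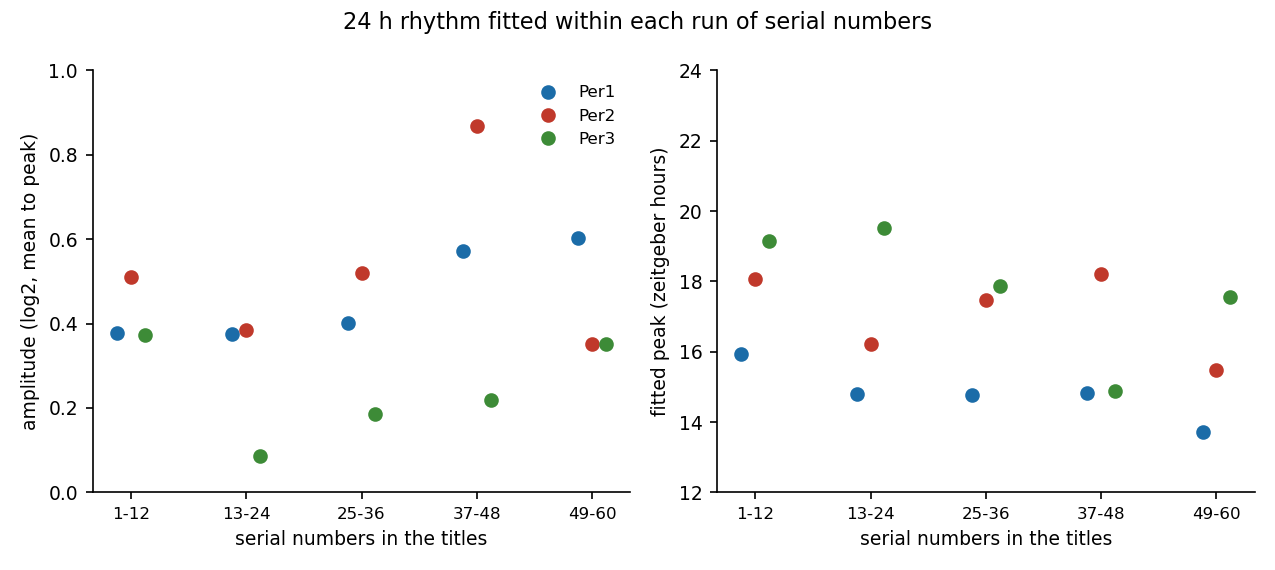
Amplitude (left) and peak (right) of the 24 h curve fitted separately in the 5 runs of serial numbers, with 12 libraries per run and 11 in the last, and no error shown. Per1 keeps its peak between ZT13.7 and ZT15.9 in every run, while the Per2 amplitude reaches 0.87 in the run numbered 37 to 48 and 0.35 in the last.

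Libraries of the same time and sex differed from each other in Per1 and Per2 together. The deviations of Per1 and Per2 from their group means had a Pearson r of 0.57 and a Spearman rho of 0.51 over the 59 libraries (permutation test, p = 0.0001 and 0.00038, adjusted over 3 pairs 0.0003 and 0.00114). Without the 2 libraries farthest from the median of Per1 the r was 0.50, and it was 0.44 among the 48 libraries numbered 1 to 48 (permutation test, adjusted p = 0.0493). Among the 11 libraries numbered 49 to 60 it was 0.68 and did not pass after adjustment (permutation test, p = 0.0252, adjusted p = 0.0755). These 11 held 1 library per group and were permuted across times and sexes, so this value is not a relation within groups. In both subsets the deviations were from group means over all 59 libraries. Per1 and Per3 gave an r of 0.25 and a rho of 0.22 (permutation test, adjusted p = 0.13 and 0.192), and 0.21 without the 2 farthest libraries. Per2 and Per3 gave an r of -0.03 and a rho of -0.002 (permutation test, adjusted p = 0.859 and 0.992). The deviations of Per1 and Per2 also ran with the first principal component, with an r of 0.71 and 0.72, and with the share of reads in the 6 most abundant genes, with an r of -0.45 and -0.47. For Per3 these were 0.05 and -0.11. The part of that component in the relation was not tested. Set against all other tested genes, the r of Per1 had a median of -0.05 and ran from -0.67 to 0.63 between the 5th and 95th percentiles, so the 0.57 with Per2 lay inside that range. The r of Per3 with other genes ran only from -0.21 to 0.22. Scaling by the total of the table turned the relation of Per2 and Per3 to 0.72 and raised that of Per1 and Per3 to 0.82.

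**Figure D5:**
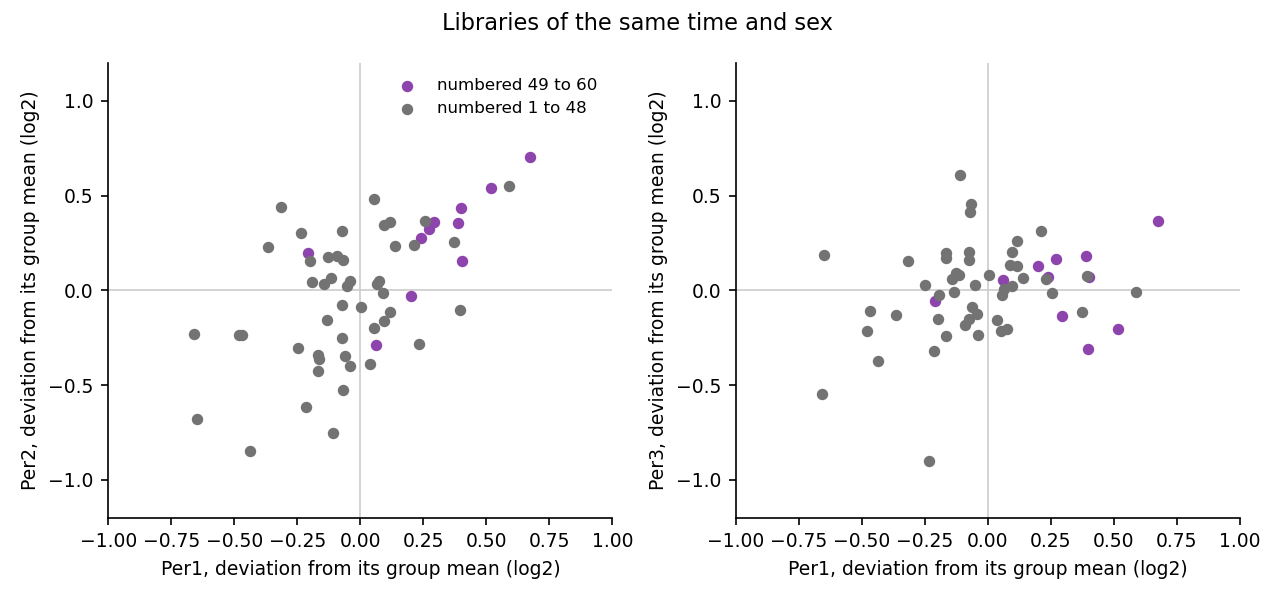
Deviation of each library from the mean of its time and sex, in log2 units, for Per2 (left) and Per3 (right) against Per1, with libraries numbered 49 to 60 in purple and the others in grey. Per2 rises with Per1, with an r of 0.57, and Per3 shows an r of 0.25.

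Transcripts with the most similar pattern were found by the Pearson correlation of the 12 group means, as a description over 12 points without a p. Among the transcripts most like Per1 were Tsc22d3, the gene of the leucine zipper protein GILZ, a target of glucocorticoids (r = 0.87), Frmd6, a FERM domain protein (0.87), Junb, a subunit of the AP-1 transcription factor (0.86), and the kinase gene Stk40 (0.84). The patterns most opposed to Per1 were those of Dnase2a, a lysosomal nuclease (-0.92), Msrb3, a methionine sulfoxide reductase (-0.91), and Txndc12, a thioredoxin-like protein (-0.86). Per2 was most like Ppp4r3a, a regulatory subunit of protein phosphatase 4 (0.93), Nab2, a corepressor of the EGR factors (0.92), Zswim4 (0.89), the splicing factor gene Rbm5 (0.89) and the ETS factor gene Ets2 (0.89), and least like Hnrnpc (-0.92), Ppp1r11, an inhibitor of protein phosphatase 1 (-0.92), and Ppcs, an enzyme of coenzyme A synthesis (-0.91). Per3 was most like Frmd6 (0.87), Per2 (0.87), Rbm5 (0.85), Nab2 (0.85) and Cish, a suppressor of cytokine signalling (0.84). Hnrnpc, an RNA-binding protein of the spliceosome, was the most opposed to Per3 too (-0.90), followed by the glycolytic enzyme gene Pgam2 (-0.87) and Epm2aip1 (-0.87). Among themselves the members gave 0.87 for Per2 and Per3, 0.72 for Per1 and Per2 and 0.63 for Per1 and Per3. By r, Per2 ranked 49 among transcripts like Per1, and Per3 ranked lower. Per3 ranked 8 for Per2 and Per2 ranked 2 for Per3, with Per1 lower for both. Of the named transcripts other than the members, only Tsc22d3, Frmd6, Junb, Nab2, Rbm5, Hnrnpc and Ppcs passed the 24 h rhythm test. The others did not, among them Ppp4r3a (adjusted p = 0.256), Ets2 (0.621) and Dnase2a (0.365, all limma).

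The other genes of the loop were few in the table, and the counts below stand beside 1.9% of all tested genes called and 74.1% of those called with a peak from ZT12 to ZT24. No Cryptochrome or other listed clock repressor besides the Period genes was among the 4484 genes analysed here, and of the 6 listed activators only Arntl2, a paralogue of Bmal1, was tested, with an amplitude of 0.34 ± 0.20 (adjusted p = 0.794, limma, Benjamini-Hochberg). Of 3 nuclear receptors that act on the Bmal1 promoter 2 passed: the REV-ERB genes Nr1d1 (0.44, peak ZT11.6) and Nr1d2 (0.24, ZT13.9), both with fitted peaks earlier than that of Per1, while the activator Rora had 0.08 (adjusted p = 0.888, limma). The Per1 peak was at ZT14.9 ± 0.47 h (SE), close to that of Nr1d2, and the order of these peaks was not tested. Hlf, the 1 tested PAR bZIP gene, encodes a factor that binds D-boxes and passed with 0.17 and a peak at ZT19.8. None of 7 tested genes for enzymes that modify clock repressor proteins or mark them for decay passed, a count near the 1.9% background. They included Csnk1a1 and Csnk1g3 of the casein kinase 1 family, Csnk2a2, Cdk5, the phosphatase gene Ppp1ca and the ubiquitin ligase gene Mdm2. Their median amplitude was 0.03 against 0.08 over all genes tested. None of 11 tested partners of PER complexes passed either (smallest p Cipc, Hdac3, Pml and Hdac2, amplitudes 0.07, 0.06, 0.11 and 0.02), again near the 1.9% background, with a median of 0.05.

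Genes of the inputs to Per1 and Per2 are given list by list. In the CREB pathway 0 of 9 tested genes passed, near the 1.9% background, with Creb1 itself at 0.09 (adjusted p = 0.318), Crem at 0.16 (0.471), Crtc1 at 0.19 (0.644) and Prkaca at 0.07 (0.646, all limma). Of 11 tested activity-induced genes 7 passed, all with peaks between ZT12 and ZT24, where 60 of the 81 called genes of the whole table peaked too. Those of smallest p were Arc, which encodes a regulator of synaptic strength (0.90, peak ZT18.1), and the AP-1 genes Junb (0.48, ZT16.3), Jun (0.27, ZT20.2) and Fos (0.60, ZT17.9). The list's median amplitude was 0.41. An uncalled gene of the list peaked in the light phase, at ZT5.1 (0.27, adjusted p = 0.168, limma). The other uncalled genes of the list peaked between ZT12 and ZT24. Of 5 tested glucocorticoid-induced genes 2 passed, Tsc22d3 (0.44, ZT15.8) and Ddit4, an inhibitor of mTORC1 (0.34, ZT16.1). Errfi1 had 0.14 with a peak at ZT17.8 (adjusted p = 0.139, limma), and Pdk4 had 0.23 with a peak at ZT1.1 (adjusted p = 0.184, limma). Of 5 tested genes of the heat and cold response only the chaperone gene Dnajb1 passed (0.14, ZT19.1), beside Hsf1 (0.31, adjusted p = 0.198), Hspa1a (0.21, adjusted p = 0.909) and Hspa8 (0.03, adjusted p = 0.99, limma). The called share of all tested genes is 1.9% for each of these lists, and no list was tested against it. These lists were chosen with rhythmic genes of these libraries already known, so their counts are no independent evidence. The alternatives were run for the Period genes and for counts over all genes, not for the genes of these lists one by one.

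Markers of other cell types gave values beside these rhythms. None of the markers passed the rhythm test: 0 of 4 for glutamatergic neurons, 0 of 8 for GABAergic neurons, 0 of 4 for astrocytes, 0 of 2 for oligodendrocytes and precursors, 0 of 2 for microglia, 0 of 2 for striatal projection neurons, 0 of 1 for leptomeningeal cells and 0 of 1 for the olfactory bulb. Counts of 0 in lists of this size are near the 1.9% background, and an unadjusted p under 0.05 was found for 3 of 8 GABAergic, 1 of 4 astrocyte and 1 of 1 olfactory bulb markers. The smallest p was that of the GABAergic neuropeptide gene Crh (0.44, peak ZT8.6, adjusted p = 0.0639, limma). The summed level of the glutamatergic markers ranged from 14.98 at ZT2 to 15.10 at ZT18 on the log2 scale, and that of the GABAergic markers from 12.50 at ZT22 to 12.71 at ZT18. Astrocyte markers ranged from 13.74 at ZT6 to 14.04 at ZT2, oligodendrocyte markers from 9.75 at ZT14 to 10.14 at ZT2, and microglial markers from 9.96 at ZT14 to 10.26 at ZT2. The striatal markers Penk and Tac1 together ranged from 8.54 at ZT22 to 8.85 at ZT10, the leptomeningeal marker Lum from 5.37 at ZT22 to 6.09 at ZT10, and the olfactory bulb marker Calb2, which GABAergic interneurons of the cortex also express, from 7.79 at ZT14 to 8.29 at ZT2. No tested marker was at 0 in any library. The summed glial levels were thus highest at ZT2, where Per1 was lowest. Single markers differed from the sums. The astrocyte markers had fitted peaks at ZT22.3 (Slc1a3), ZT0.97 (Gja1), ZT19.9 (Fgfr3) and ZT10.5 (Gfap), none of them called. The share of reads in the 6 most abundant genes averaged 78.1% at ZT14 and 78.5% at ZT2. It was lowest at ZT6, at 75.5%, and ZT18, at 75.6%, and its SD at a single time was 4.81 to 8.54. The part of cell composition in the Period rhythms was not tested.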

How the data were processed

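Per the labels, the Qiagen RNeasy Plus Micro kit gave the RNA and the Takara SMART Stranded Total RNA kit the libraries. The submitters' processing notes name FastQC, HTSeq, DESeq2 and the build GRCm38; versions, aligner, annotation and strand setting are not given in the sources used here. The table's name speaks of raw counts, but the deposited values are log2 values: once back on the linear scale with a pseudocount of 1 taken off, each library consists of whole multiples of its own step (largest deviation 0.0128), from which reads were recovered. Replicates are numbered by the run of 12 serial numbers in the titles. A number for the animal repeats within groups in the titles, and whether a repeat is 1 animal is not stated.

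Testing was limited to the 4273 genes that reached 10 recovered reads in 4 or more libraries. Limma 3.58.1 in R 4.3.3 was fitted to the deposited log2 values with a trend and robust variances; Benjamini-Hochberg adjustment ran over all genes tested, and the threshold was 0.05. The fits were tested on simulated data. Rhythms were tested by the cosine and sine terms together; steps and 12 h contrasts used group means weighted equally over the sexes, so they can differ in the second decimal from differences of the pooled means. Pairs of members were compared by permutation with 100000 resamples and delta-method intervals at 95%. Alternatives were other scalings, limma voom, no filter, a pseudocount of 4, a replicate block, residual components and omission of libraries. GENCODE M21 gave symbols for 4465 of 4484 genes. The genes named are the Period genes, every tested member of the first 5 gene lists and up to 4 of smallest p of the others, and the 5 most and 3 least similar in pattern with a proper gene name; some genes that these rules name are not reported here. The members and lists were chosen with earlier results of these data known.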

Additional observations from a re-analysis of the deposited data

Results flagged for a closer look

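Of the 36 sets of libraries of 1 time, sex and Period gene, 2 held a library far from the others, where chance gives about 1 set in 20. Per1 in ZT18 female replicate 2 had a log2 value of 9.92 from 239 reads, below the other 4 libraries of its group, which lay between 10.41 and 10.56. Per3 in ZT6 female replicate 2 had 8.35, below the other 4 at 8.70 to 8.83. Both gaps were large against the range of the group, at 0.772 and 0.725 of it. Leaving out either library changed no call of the 24 h rhythm over all libraries for any Period gene.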

How the results depend on the processing

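Of 3588 values of the Period genes under the alternatives, 3455 kept their direction and their side of the threshold, 45 lost a call, 42 gained one and 46 changed sign. Only 402 of the 3588 came from alternatives other than leaving out 1 library, and values that were uncalled throughout count as kept. Adjusted p-values are from limma with Benjamini-Hochberg, and the cause of a change was not tested unless given.

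Scaling by the total of the table moved the median of all genes by 0.14, -0.20, 0.20, -0.12 and 0.10 in ZT6 minus ZT2, ZT10 minus ZT6, ZT18 minus ZT14, ZT22 minus ZT18 and ZT22 minus ZT10. It ended every call of a Period gene in the limma fits: the rhythm over all libraries (Per1 0.43, Per2 0.52, Per3 0.24), in males (Per1 0.39) and in females (Per1 0.55, Per2 0.82), the difference between the 6 times (largest difference 1.002 for Per1, 1.17 for Per2), ZT14 minus ZT10 (Per2 0.81), ZT14 minus ZT2 (Per1 0.91) and ZT18 minus ZT6 (Per1 0.55, Per2 0.97). It reversed ZT6 minus ZT2 for Per2 (0.081), ZT10 minus ZT6 for Per3 (-0.16), ZT18 minus ZT14 for Per1 (0.089) and the within-group r of Per2 and Per3 (0.72), and called that of Per1 and Per3 (0.82). Genes called fell to 3 for the rhythm over all libraries, 1 in males, 1 in females, 2 for the 6 times, 1 for ZT14 minus ZT10 and 2 for ZT18 minus ZT6, and to 0 for males minus females, ZT6 minus ZT2, ZT18 minus ZT14, ZT14 minus ZT2 and ZT22 minus ZT10.

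Scaling by the 75th percentile changed no call of a Period gene, and 1 gene passed at ZT18 minus ZT14 and 20 at ZT18 minus ZT6. Limma voom reversed males minus females for Per2 (-0.051) and called Per3 over the 6 times (0.39) and Per2 at ZT14 minus ZT2 (0.72), where 20 genes passed. The absence of a filter and a pseudocount of 4 changed no call.

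The main fits did not include the run, although libraries of 1 run were somewhat alike. Libraries of 1 run in different groups correlated in their residuals by 0.107 on average (-0.494 to 0.601). Those of other runs correlated by -0.0264 (-0.677 to 0.625), and 26 of 59 libraries correlated best with their own run. The p-values of the main fits do not take this likeness into account. With the run as a replicate block the rhythm amplitudes were 0.45, 0.51 and 0.23 for Per1, Per2 and Per3, all called. The block called Per3 over the 6 times (0.39, limma adjusted p = 0.0382) and Per2 at ZT14 minus ZT2 (0.69), reversed males minus females for Per2 (-0.0021) and ZT10 minus ZT6 for Per2 (0.0019), and changed no other call. Genes called with the block were 15 for the rhythm in males, 2 for males minus females, 91 for the 6 times, 9 at ZT6 minus ZT2, 1 at ZT10 minus ZT6, 26 at ZT14 minus ZT2, 55 at ZT18 minus ZT6 and 18 at ZT22 minus ZT10.

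Without the libraries numbered 49 to 60 the rhythm of Per3 (0.19), the male rhythm of Per1 (0.36) and ZT14 minus ZT10 for Per2 (0.74) lost their calls, and ZT10 minus ZT6 for Per2 reversed (0.021). Genes called were 50 over all libraries, 4 in males, 5 in females, 26 for the 6 times, 0 at ZT6 minus ZT2, 2 at ZT18 minus ZT14, 7 at ZT14 minus ZT2, 15 at ZT18 minus ZT6 and 5 at ZT22 minus ZT10. In those 11 libraries alone, an alternative chosen after seeing the data, the amplitudes were 0.60, 0.35 and 0.35 for Per1, Per2 and Per3 with no call and 0 genes called. Over the same 11 libraries, the deviations of Per1 and Per2 from the group means of all libraries had an r of 0.68 (adjusted p = 0.0755, permutation test across groups).

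The first 2 residual components lie outside the group means, so by construction they lower the spread and leave every effect as it was; their p-values are then too small. They called the male rhythm of Per2 (0.33), the female rhythm of Per3 (0.30), the sex difference of rhythm of Per2 (0.42), the 6 times for Per3 (0.39), ZT6 minus ZT2 (0.30), ZT10 minus ZT6 (0.26) and ZT14 minus ZT10 (0.39) for Per1, ZT22 minus ZT18 for Per1 (-0.45) and Per2 (-0.48), ZT2 minus ZT22 for Per1 (-0.39) and Per2 (-0.41), ZT14 minus ZT2 (0.69) and ZT22 minus ZT10 (0.51) for Per2, and ZT18 minus ZT6 for Per3 (0.37). Genes called were 359 over all libraries, 359 in males, 694 in females, 720 for the sex difference, 2 for males minus females, 1270 for the 6 times, 962 for the 12 h terms, 796, 654, 204, 657, 345 and 46 for the 6 steps from ZT6 minus ZT2 on, 306 at ZT14 minus ZT2 and 238 at ZT18 minus ZT6, with more at ZT22 minus ZT10 too.

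Leaving out 1 library at a time kept the rhythm calls over all libraries, with amplitudes of 0.42 to 0.47 for Per1, 0.49 to 0.55 for Per2 and 0.21 to 0.24 for Per3, and 74 to 96 genes called. Other results changed a call or sign: the male rhythm of Per1 (0.37 to 0.43), males minus females for Per2 (-0.029 to 0.045), the 6 times for Per3 (0.37 to 0.46, called without ZT2 female replicate 2, ZT10 male replicate 2 or ZT10 female replicate 1), ZT6 minus ZT2 for Per2 (-0.16 to 0.018) and Per3 (-0.049 to 0.095), ZT10 minus ZT6 for Per2 (-0.12 to 0.055) and Per3 (-0.018 to 0.21), ZT14 minus ZT10 for Per2 (0.70 to 0.84), ZT22 minus ZT18 for Per3 (-0.058 to 0.021), ZT14 minus ZT2 for Per2 (0.59 to 0.76, called without any 1 of 19 libraries), ZT18 minus ZT6 for Per1 (0.46 to 0.60), and the within-group r of Per1 and Per3 (0.18 to 0.30, called without ZT2 female replicate 2) and of Per2 and Per3 (-0.10 to 0.075). Genes called ran from 4 to 11 in males, 9 to 17 in females, 0 to 10 at ZT6 minus ZT2, 0 to 2 at ZT10 minus ZT6, 0 to 4 at ZT18 minus ZT14, 6 to 16 at ZT14 minus ZT2, 12 to 38 at ZT18 minus ZT6 and 5 to 11 at ZT22 minus ZT10. Counting error at the median depth was 0.08, 0.12 and 0.12 of within-group SDs of 0.31, 0.39 and 0.27 for Per1, Per2 and Per3 (log2 scale).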
